A study of Mus musculus with 22 samples.

Results

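Gene expression at day 10 of primordial germ cell (PGC) culture was set against day 6 of the culture, 1 array for each day, which makes 2 of the 22 Agilent 1-colour arrays of the series. The samples were taken by their titles and no measured value entered the choice. Both samples were mouse PGCs labelled E11.5, a mid-gestation stage, that had been put in culture, and on both days the cells positive for SSEA-1, a surface glycan of germ cells and pluripotent cells, were profiled. The title of the day 10 sample names no addition to the medium. The day 6 sample had bFGF with 2i, which is the MEK inhibitor PD325901 at 1 µM and the GSK3 inhibitor CHIR99021 at 3 µM, and with 250 nM A83-01, which blocks the type I receptors of TGF-beta, activin and Nodal. The culture medium held serum replacement and LIF. Whether the additions still stood in the medium at day 10 is not given in the sources used here, so day of culture and medium cannot be told apart. Levels are also given for uncultured PGCs, for day 1 with bFGF, for days 2 and 3 with the additions of day 6, for an embryonic germ cell (EGC) line and for an embryonic stem cell (ESC) line, all with 1 array. No group was replicated, so no difference below has an error from repeated cultures and no test was run.

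PGCs are the founders of sperm and egg. In culture with bFGF some of them convert into EGCs, which resemble ESCs and can contribute to all tissues, and inhibition of MEK and GSK3 favours the naive state of pluripotency. Nodal, a ligand of the TGF-beta family, signals through activin receptors to SMAD2 and SMAD3 and switches on its own gene and those of its antagonists Lefty1 and Lefty2. Type I interferons act through receptor-bound kinases on transcription factors that bind a short promoter element of antiviral genes. Immediate early genes such as Fos and Egr1 are switched on within minutes by growth factors, stress or tissue dissociation.

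Germ cell and pluripotency markers were present on both arrays: Pou5f1 was at 5.04 at day 10 and 3.88 at day 6, Dppa3 at 3.37 and 3.24 and Ddx4 at -0.16 and -0.21, on the scale explained next. Of the enzymes that make the SSEA-1 glycan, Fut4 was at -0.72 and -0.72, and Fut9 at -2.69 and -4.24 (2.93-fold higher). Fut9 was the exception among 8 SSEA-1 glycan genes, of which 7 had a difference below 0 (list median -0.33). It was the only one at least 2-fold higher and none was 2-fold lower (8.27% and 9.03% of all genes were). Further list members besides those picked by rule are named below, chosen after their values were seen.

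A level below is the log2 intensity of a gene's probe minus the log2 of the 75th percentile of its array, and a difference is the level at day 10 minus the level at day 6. Of 17315 genes well above background on at least 1 of the arrays, 1432 (8.27%) were at least 2-fold higher at day 10 and 1563 (9.03%) at least 2-fold lower, 17.3% in all. Larger differences ran mostly downwards: 204 genes were at least 4-fold higher and 547 at least 4-fold lower, and 35 were at least 8-fold higher against 170 at least 8-fold lower. The median over all genes was 0.22, with quartiles at -0.21 and 0.56, and list medians below are to be read against that shift. Counts of list members are to be read against the shares of 8.27% higher and 9.03% lower. A fold written as "at least" is a bound: the gene was dim on 1 of the arrays, and the lowest detectable level of that array stood in for it, as in 636 of the calls. Higher genes made up 47.8% of the calls, and 31.4% where the difference was smoothed on the mean level (loess). In the plot of day 10 against day 6 most genes lie between the 2-fold lines, and most interferon and immediate early genes lie below them.

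**Figure D1:**
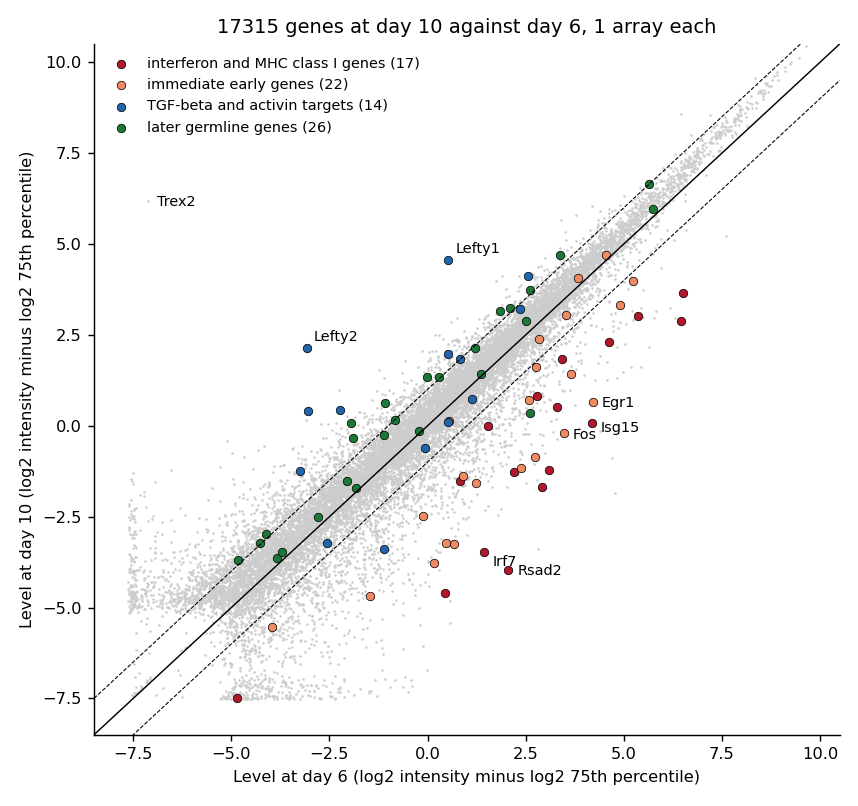
Level at day 10 (vertical axis) against level at day 6 (horizontal axis), both as log2 intensity minus the log2 75th percentile of the array, for 17315 genes (grey) and for 4 gene lists (colours, number of members in brackets). The solid line marks equal levels and the dashed lines a 2-fold difference; levels are as measured, also below background. The 17 interferon and MHC class I genes lie below the lower dashed line as measured (Mx1, dim at day 10, was not counted as 2-fold lower), while Lefty1 and Lefty2 lie far above the upper one, and Trex2 stands alone at the upper left.

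The precision within an array was finer than the 2-fold limit of the calls. For 167 probes with 10 spots each that were above background on both arrays, the median SD between spots was 0.064 at day 10 and 0.056 at day 6 on the log2 scale, and the scanner's own error of a difference had a median of 0.20. Where a called gene had further probes above background, 314 of 339 such probes (92.6%) of higher genes and 425 of 470 (90.4%) of lower genes differed in the same direction. Fewer reached 2-fold in that direction, 153 (45.1%) of the probes of higher genes and 299 (63.6%) of those of lower genes. Among 7992 such probes of any gene 6.22% were at least 2-fold higher and 5.62% lower. Their differences lay a median of 0.24 away from that of the gene's reported probe. None of this measures the spread between cultures. The 75th percentile lay at an intensity of 373.2 at day 10 and 782.5 at day 6, and 60.9% and 60.1% of probes were well above background. The day 10 array shared a slide and a scan session with the day 1 and day 2 arrays, and the day 6 array shared its slide and session with day 3, so slide, scan session and day cannot be told apart. For this reason the difference between day 10 and day 2 with 2i and A83-01 (both on 1 slide) and between day 6 and day 3 (both on another) is given beside the main lists.

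Genes of the interferon response were lower at day 10 almost throughout. Of 17 interferon and MHC class I genes 16 were at least 2-fold lower at day 10 (9.03% of all genes were), none was higher, and the median difference was -2.85. Rsad2, which encodes the antiviral enzyme viperin, was at -3.96 at day 10 against 2.05 at day 6, a 64.7-fold lower level, and its 2 further probes had differences of -4.00 and -6.81, the second not above background at day 10. Irf7, the transcription factor that amplifies interferon production, was at -3.46 against 1.44 (29.9-fold lower). In the EGC line Rsad2 stood at -4.13, near its day 10 level, and Irf7 at -4.64, below it.

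Usp18, a protease that removes ISG15 and damps the receptor, was at -1.68 at day 10 and 2.93 at day 6, and Isg15, the ubiquitin-like modifier itself, at 0.07 and 4.19. The RNA-binding antiviral proteins Ifit1, Ifit2 and Ifit3 were 11.2-fold, 33-fold and 19.7-fold lower. Irf9, a transcription factor that carries the interferon signal, was 2.91-fold lower (-0.01 against 1.53). Antigen presentation was lower as well: the class I heavy chain genes H2-K1 and H2-D1 were 11.8-fold and 5.02-fold lower, their light chain gene B2m 7.22-fold, and the peptide transporter gene Tap1 5.08-fold. H2-K1 was at 2.88 at day 10 against 6.45 at day 6 and B2m at 3.66 against 6.51, so both stayed among the brighter genes at day 10. Mx1, the only member that was not called, was not above background at day 10 and was at -4.86 at day 6.

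A wider list of interferon-stimulated genes, drawn up after the values had been seen, gave 31 of 37 genes lower, none higher and a median of -2.34. Oasl1, an antiviral protein of the oligoadenylate synthetase family, was at -3.38 at day 10 against 2.81 at day 6, which is 73.1-fold lower. The GTPase genes Iigp1, Igtp, Gbp2 and Gbp3, which attack the vacuoles of intracellular parasites, were lower, with differences of -3.71, -3.38, -2.54 and -3.52. The immunoproteasome subunits Psmb8, Psmb9 and Psmb10 were 8.25-fold, 4.21-fold and 2.13-fold lower, and the class I-like gene H2-T23 5.06-fold. The smallest differences in the list were those of Trim25 (2.87 at day 10, 3.19 at day 6), Adar (-0.13 and 0.69) and Ifitm3 (4.90 and 5.79), among genes above background on both arrays. Ifitm3 is also a marker of PGCs. Apol9a and Apol9b, apolipoprotein L genes, and Slfn2, of the Schlafen family, which no list held, were among the 12 most lowered genes above background on both arrays, at 41.9-fold, 48-fold and 22-fold.

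Along the culture these genes had been low in uncultured PGCs and high on every culture array up to day 6. Rsad2 stood at -5.74 in PGCs, 1.68 at day 1, -0.46 at day 2, 1.26 at day 3, 2.05 at day 6 and -3.96 at day 10. Its PGC level lay below the lowest detectable level of that array, -3.7. The median level of the interferon and MHC class I list was -2.19 in PGCs, 3.08 at day 1, 2.17 at day 2, 3.04 at day 3, 2.93 at day 6 and -0.01 at day 10, with the EGC line at -1.63 and the ESC line at -0.45. Day 10 lay below the earlier culture arrays and above the uncultured PGCs and both lines. On the slide that day 10 shared with day 2 the list had a median difference of -2.74, and on the slide that day 6 shared with day 3 one of -0.21. For this list the lower level at day 10 was thus about as large against an array of the same slide and scan session. All genes had a median of 0.30 in that difference, with 3318 at least 2-fold higher and 2295 lower of 16923. The wider list was lower by less there, with a median of -1.54 against -2.34 for day 10 minus day 6. Of its 36 genes tested on that slide, 25 were at least 2-fold lower and 1 higher. Its median for day 6 minus day 3 was 0.04. Since the samples are bulk RNA, fewer cells that express these genes and less of their RNA in each cell cannot be told apart, here and in every list below.

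**Figure D2:**
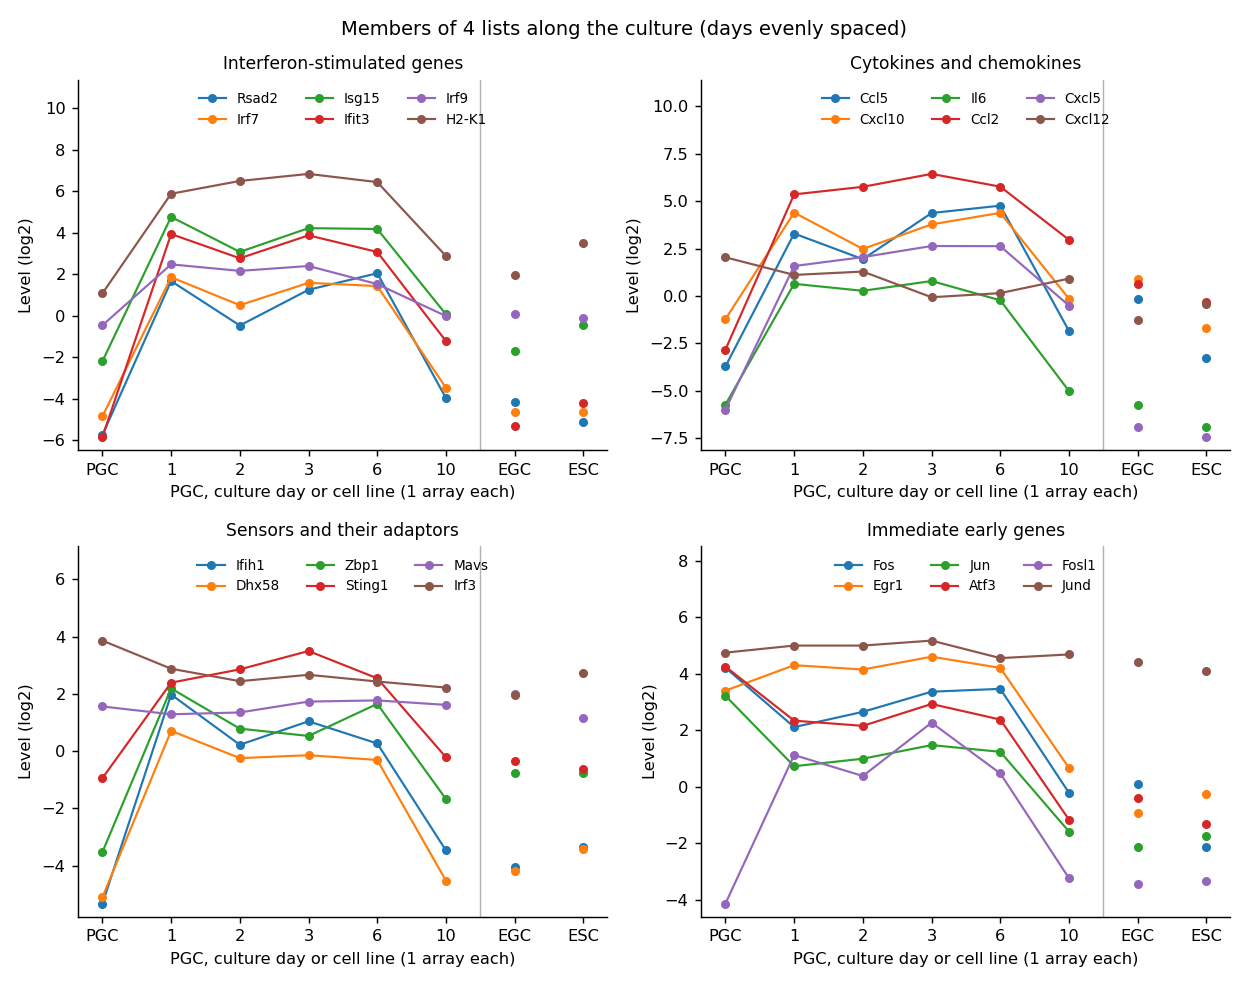
Level (log2 intensity minus log2 75th percentile, vertical axes) of 6 members each of 4 gene groups in uncultured PGCs, at days 1, 2, 3, 6 and 10 of culture and in the EGC and ESC lines (horizontal axes, 1 array per point, days evenly spaced). Rsad2, Irf7, Ccl5, Ifih1 and Fos are far lower at day 10 than at day 6, whereas Mavs, Irf3 and Jund differ by less than 0.25 and Cxcl12 is at 0.91 at day 10 against 0.15 at day 6.

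The promoters of the interferon genes were searched for the core of the interferon-stimulated response element, which is GAAA, any 2 bases and GAAA again, on both strands over 250 bases before and 50 bases after the gene's start. Of the 14 interferon and MHC class I genes with a RefSeq promoter (assembly GRCm38.p6), 7 held it, as did 10 of the 29 such genes of the wider list, while 3.44% of all 32851 promoters did. Matches of this motif may overlap each other. The stretches that hold it in Isg15, Ifit3 and Rsad2 are shown because these genes were among the most lowered and their elements lie close to the start. The 180 bases before the start are given 5′ to 3′ on the strand of the gene, with the motif in capitals. In the Ifit3 and Rsad2 promoters it reads on the opposite strand.
Isg15, chr4:156200819-156200998, minus strand: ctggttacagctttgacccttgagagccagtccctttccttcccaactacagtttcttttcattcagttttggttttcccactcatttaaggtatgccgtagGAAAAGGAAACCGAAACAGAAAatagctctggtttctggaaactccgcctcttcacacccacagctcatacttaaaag
Ifit3, chr19:34583349-34583528, plus strand: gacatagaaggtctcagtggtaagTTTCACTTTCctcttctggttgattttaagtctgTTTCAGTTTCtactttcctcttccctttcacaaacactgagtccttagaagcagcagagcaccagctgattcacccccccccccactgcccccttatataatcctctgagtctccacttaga
Rsad2, chr12:26456453-26456632, minus strand: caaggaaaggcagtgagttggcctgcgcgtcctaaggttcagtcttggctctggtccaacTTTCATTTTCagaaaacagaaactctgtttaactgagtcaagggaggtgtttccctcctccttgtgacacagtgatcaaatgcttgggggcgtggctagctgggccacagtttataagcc
Isg15 held 3 overlapping matches, the first at position -78 from the start, Ifit3 held 2 separate ones, at -156 and -122, and Rsad2 held 1, at -120. The match is a description of these letters and not of binding.

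The sensors of foreign nucleic acid, which lie upstream of interferon production, were mostly lower as well. In a list chosen after the values had been seen, 9 of 13 genes were at least 2-fold lower (9.03% of all genes were) and none was higher. The list median was -1.51 (-0.92 after normexp background correction). The cytosolic RNA sensors Ifih1 (MDA5) and Dhx58 (LGP2) were 13.3-fold and 18.6-fold lower, at -3.47 against 0.27 and -4.53 against -0.31. Ddx58, which encodes the RNA sensor RIG-I, was 2.19-fold lower. The DNA sensor Cgas was 2.85-fold lower, its adaptor Sting1 6.76-fold, and Zbp1, a sensor of Z-form nucleic acid, 10.0-fold. In contrast, the adaptor Mavs was at 1.62 at day 10 and 1.77 at day 6, the kinase Tbk1 at -0.53 and -0.17, and the transcription factor Irf3 at 2.22 and 2.43, none of them 2-fold apart.

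The interferon ligand genes were at or below background on both days. Of the genes Ifnb1, Ifna2, Ifna4, Ifnl3 and Ifng, none was above background at day 6, and Ifng alone was at day 10, close to the floor at -4.86. Ifnb1 was at -3.72, -4.53 and -3.72 at days 1, 2 and 3. Among the receptor genes Ifnar1 was at -1.12 at day 10 and -1.39 at day 6 and Ifnar2 at 0.55 and 1.37. The receptor subunits Ifngr2 and Il10rb were 4.62-fold and 3.31-fold lower, which made them the 2 called genes among the 9 tested of this list, also chosen after the values had been seen. Its median was -0.69.

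Chemokines and cytokines were lower along with the interferon genes. Of 16 tested, 13 were at least 2-fold lower (9.03% of all genes were) and none higher, in a list chosen after the values had been seen. Its median was -2.86 (-1.86 after normexp). Ccl5, a chemokine that draws T cells, had the lowest difference of all genes above background on both arrays: -1.85 at day 10 against 4.76 at day 6 (97.9-fold lower), with a difference of -7.08 on its second probe. Cxcl10, a ligand of the receptor CXCR3, was 23.1-fold lower, and Il6, the LIF-related cytokine, 27.7-fold (its spot lies in an area at 1 edge of the array that held more bright spots at day 10 than elsewhere). Cxcl2, Tnf and Csf2 were not above background at day 10 and were at least 16.7-fold, at least 13.3-fold and at least 6.75-fold lower. Ccl2, which recruits monocytes, stayed high at 2.96 against 5.77. The single member with a difference above 0 was Cxcl12, whose product guides migrating PGCs, at 0.91 at day 10 and 0.15 at day 6.

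In the NF-kappaB pathway, which drives many of these cytokine genes, 10 of 15 tested genes were lower (9.03% of all genes were) and none was higher. The list was chosen after the values had been seen and had a median of -1.37. The prostaglandin synthase gene Ptgs2 was at -3.98 against 0.28 (difference -4.26), and Tnfaip3, an inhibitor of the pathway, was 11-fold lower. Nfkbia, the inhibitor that holds NF-kappaB in the cytoplasm, was at 3.11 against 4.77 (3.16-fold lower). Of the subunits, Rela, Relb and Nfkb2 were 2.4-fold, 2.35-fold and 3.99-fold lower, while Nfkb1 was at -0.32 and -0.07. Icam1, Sod2 and Nfkbib had differences above 0: the adhesion gene Icam1 was at 3.50 at day 10 and 2.98 at day 6.

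Most immediate early genes were lower at day 10. Of 22, 17 were at least 2-fold lower at day 10 (9.03% of all genes were) and none was higher, with a median of -2.27. Fos, a subunit of the AP-1 transcription factor, was at -0.21 at day 10 and 3.47 at day 6 (12.8-fold lower), and Egr1, a zinc finger factor induced by growth factors, at 0.66 and 4.21 (11.7-fold lower). Egr2, Fosb and Fosl1 had the lowest differences, -3.93, -3.92 and -3.71. The AP-1 subunit Jun was 7.08-fold lower and Junb 2.38-fold, whereas Jund, a constitutively expressed member of the family, was at 4.68 and 4.55. Atf3, a stress-induced factor, was 11.6-fold lower, and Dusp1, a phosphatase that ends MAP kinase signals, 3.62-fold. Socs3, a feedback inhibitor of LIF signalling, was at 4.07 and 3.83, and Ier2, Btg2 and Csrnp1 also stayed within 2-fold.

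The course of the immediate early genes was unlike that of the interferon genes, since they were already high in uncultured PGCs. Fos stood at 4.22 in PGCs, 2.11 at day 1, 2.65 at day 2, 3.37 at day 3, 3.47 at day 6 and -0.21 at day 10, with 0.09 in the EGC line and -2.14 in the ESC line. The median level of the list was -0.05 at day 10 and 2.65 at day 6, against 3.31 in PGCs, and was 0.37 in the EGC line. The list was also lower on the shared slide, with a median of -2.44 for day 10 minus day 2, and of -0.38 for day 6 minus day 3. Fosl1 departed from this course, at -4.14 in PGCs, below the lowest detectable level of that array (-3.7), and 2.27 at day 3. Heat shock genes, which respond to other kinds of stress, had 1 member higher (Hspb1, 2.12-fold, under 2-fold with quantile, loess or normexp) and 1 lower (Cryab, 9.22-fold) of 17, and a median of 0.10. Ddit3 and Ppp1r15a, of the integrated stress response, were 6.02-fold and 2.79-fold lower, the only called genes of 14 unfolded protein and amino acid response genes.

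The promoters of the immediate early genes were searched for the palindromic cyclic AMP response element, TGACGTCA, through which the factor CREB acts, over the same window. It reads the same on both strands. It stood in 3 of the 18 promoters available (Btg2, Dusp1 and Maff) and in 1.79% of all promoters. In the same window 1 spelling of the serum response element stood in 0 of the 18 (0.0639% of all promoters), and 1 spelling of the kappaB element in 1 of 12 promoters of the NF-kappaB list (0.155% of all). The promoter of Dusp1 is shown, since Dusp1 was the brighter of the 2 genes among them that were lower by at least 2-fold, again over the 180 bases before the start with the motif in capitals, at position -143.
Dusp1, chr17:26508473-26508652, minus strand, GRCm38.p6: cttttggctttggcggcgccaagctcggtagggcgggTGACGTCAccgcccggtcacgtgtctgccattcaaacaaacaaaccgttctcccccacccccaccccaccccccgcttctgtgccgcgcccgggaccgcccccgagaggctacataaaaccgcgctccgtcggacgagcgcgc

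Targets of YAP, the co-activator that responds to cell spreading, were lower too. Of 10, 6 were at least 2-fold lower (9.03% of all genes were) and none was higher (median -1.25). Ankrd1, a nuclear ankyrin repeat protein, was at -1.58 against 2.51 (17-fold lower) and Ccn1, a matrix protein, at 0.98 against 3.62 (6.22-fold lower). Axl, a receptor kinase, was 5.05-fold lower, while Ccn2, another classical target, had a difference of -0.81 and did not reach 2-fold. Among cell cycle regulators the inhibitors Cdkn2b and Cdkn2c were 2.74-fold and 4.91-fold lower and the D cyclins Ccnd1 and Ccnd2 3.13-fold and 4.28-fold. Cdkn2a was at -0.76 against 0.16 and Cdkn1a at 2.21 against 2.76. None of 18 mitosis genes and none of 18 replication genes was at least 2-fold apart, with medians of 0.35 and 0.27.

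The genes of the Nodal antagonists Lefty1 and Lefty2 were among those with the largest differences toward day 10. Of 14 TGF-beta and activin targets, 7 were at least 2-fold higher at day 10 (8.27% of all genes were) and 1 lower, with a median of 1.24. Lefty2 was at 2.13 at day 10 against -3.08 at day 6 (37.2-fold higher), the highest difference of all genes above background on both arrays. Lefty1 was at 4.55 against 0.53 (16.3-fold higher). The pair are close paralogs, so their probes are given here with the place that the array's annotation puts them on mm9. They lie on the plus strand of chromosome 1 and share no run longer than 7 bases.
Lefty2, chr1:182827977-182828036: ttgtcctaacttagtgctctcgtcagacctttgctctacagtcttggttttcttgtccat
Lefty1, chr1:182868137-182868196: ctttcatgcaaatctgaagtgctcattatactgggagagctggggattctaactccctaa

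Other targets and pathway genes were higher by less. Nodal itself was at 4.11 at day 10 against 2.56 at day 6 (2.92-fold higher), its co-receptor gene Tdgf1 at 4.18 against 2.69 (2.81-fold higher, spot in that edge area), and the activin subunit gene Inhbb at 1.15 against -0.30. The receptor inhibitor gene Pmepa1 was 4.02-fold higher and the inhibitory Smad7 2.77-fold. Ltbp2, which encodes a matrix protein of the latent TGF-beta-binding family, was at 0.41 against -3.04 (10.9-fold higher) and, unlike the others, at -3.81 in the EGC line. Skil, a SMAD co-repressor, lay at the 2-fold limit. The targets that were not higher included Tgfbi, a matrix gene known from stromal cells, at 0.75 against 1.13, and Inhba, the other activin subunit, was 4.92-fold lower.

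Ligands and receptors of the family differed in both directions, in a list chosen after the values had been seen. The TGF-beta ligand genes Tgfb1, Tgfb2 and Tgfb3 and their receptor gene Tgfbr2 were 3.5-fold, 3.74-fold, 2.12-fold and 2.98-fold lower (Tgfb1 and Tgfb2 by less than 2-fold after normexp background correction), whereas Nodal, Tdgf1, Inhbb and the activin receptor gene Acvr2b (2.04-fold) were higher. The 20 tested genes thus counted 4 higher and 4 lower (8.27% and 9.03% of all genes were), with a median of 0.15. The transducer genes Smad2, Smad4 and Foxh1 and the receptor gene Acvr1b were all within 2-fold, Smad2 at 1.48 and 1.37.

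Along the course from PGCs to day 10, Lefty1 was lowest at day 3, under A83-01. It stood at 0.22 in PGCs, -1.28 at day 1, -3.70 at day 2, -5.88 at day 3, 0.53 at day 6 and 4.55 at day 10, with 3.54 in the EGC line and 4.86 in the ESC line. Its day 3 level lay below the lowest detectable level of that array, -5.34. Lefty2 was not above background at days 2 and 3 and reached 2.13 at day 10, above the EGC line at 1.01. Both genes were thus also higher at day 6 than at day 3, which lay on the same slide. The target list had a median of 2.00 for day 10 minus day 2 and of 0.69 for day 6 minus day 3, each within a slide.

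**Figure D3:**
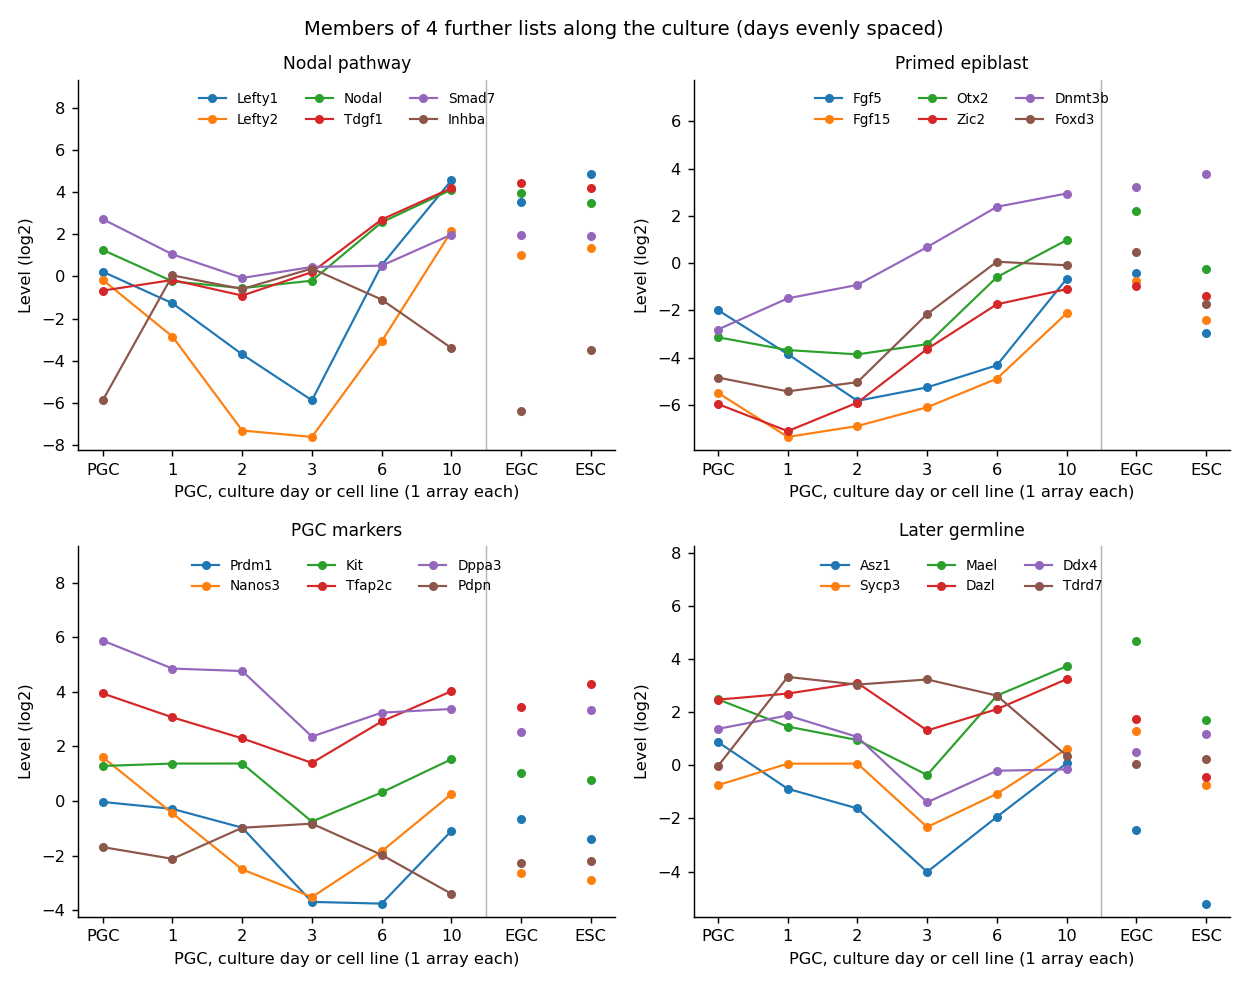
Level (log2 intensity minus log2 75th percentile, vertical axes) of 6 genes each of the Nodal pathway, the primed epiblast, the PGC markers and the later germline in uncultured PGCs, at days 1, 2, 3, 6 and 10 and in the EGC and ESC lines (horizontal axes, 1 array per point, days evenly spaced). Among the PGC and culture arrays Lefty1, Lefty2, Fgf5 and Asz1 are lowest at day 2 or day 3, and the first 3 are highest at day 10, while Inhba, Pdpn and Tdrd7 are lower at day 10 than at day 6.

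Several FGF ligand genes were higher at day 10. Of 9 tested ligands and receptors, 6 were at least 2-fold higher (8.27% of all genes were) and none lower (median 1.12). Fgf5, the classical marker of the epiblast after implantation, was at -0.67 at day 10 against -4.33 at day 6 (12.6-fold higher), close to -0.41 in the EGC line. Fgf15 was at -2.13 against -4.89, Fgf8 at -1.17 against -3.13, and Fgf10 and Fgf17 were not above background at day 6 and at least 3.15-fold and at least 2.01-fold higher. Of the receptors Fgfr4 was 2.17-fold higher on its reported probe, with differences of 0.29 and 0.33 on its further probes. Fgfr1 and Fgfr2 were within 2-fold. Feedback genes of the ERK pathway, through which these receptors signal, counted 1 higher (Spry4, 2.45-fold) and 2 lower (Fosl1 and Phlda1) of 12, with a median of 0.10; Dusp6 was at 3.51 and 3.83 and Spry2 at 2.50 and 2.44.

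Part of the primed epiblast and of the naive pluripotency genes were higher. In the primed list 6 of 13 genes were at least 2-fold higher and none lower (median 0.89), and in the naive list 7 of 25 and none lower (median 0.77). Of all genes 8.27% were at least 2-fold higher. Otx2, a homeobox gene of the primed state, was at 0.97 at day 10 against -0.59 at day 6 (2.97-fold higher), and the methyltransferase gene Dnmt3a was 2.52-fold higher. Foxd3, Sall2 and Lef1 of the same list were within 0.25 of their day 6 level. Every tested naive gene had a difference above 0, from 0.10 for Gbx2 to 1.49 for Tdgf1 (median of all genes 0.22). Of all 17315 genes 11131 had a difference above 0. Pou5f1, which encodes OCT4, was at 5.04 against 3.88 (2.23-fold higher, but not 2-fold under quantile or loess scaling), Nanog at 4.76 against 4.04 and Sox2 at 3.28 against 2.37, the last 2 within 2-fold. Klf4, Esrrb and Tfcp2l1, further factors of the naive network, were also within 2-fold, and Dppa2, a chromatin protein of pluripotent cells, was 2.64-fold higher.

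PGC markers differed gene by gene. Of 14 PGC markers, 4 were at least 2-fold higher and 1 lower (8.27% and 9.03% of all genes were), with a median of 0.54. Prdm1, which encodes the PGC determinant BLIMP1, was at -1.09 at day 10 against -3.76 at day 6 (6.33-fold higher), and Nanos3, an RNA-binding protein that protects PGCs from apoptosis, at 0.25 against -1.84 (4.28-fold higher). Kit, the receptor of stem cell factor, was 2.32-fold higher and Tfap2c, a transcription factor downstream of BLIMP1, 2.16-fold, which was not 2-fold higher under quantile or loess scaling or normexp. By contrast, Dppa3 (Stella) was at 3.37 and 3.24 and Dnd1, a partner of NANOS proteins, at -0.36 and -1.02, both below uncultured PGCs at 5.88 and 4.04. Nanos3 set day 10 apart from the lines, since it stood at -2.62 in the EGC line and -2.90 in the ESC line and at 1.60 in PGCs. Pdpn, a membrane glycoprotein of PGCs and other cells, was the lowered member (2.69-fold, under 2-fold after normexp). Within the slide that day 10 shared with day 2 the list had a median of -0.07, which is below the 0.30 of all genes in that difference.

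Genes of the later germline were mostly above their day 6 level. Of 26 tested, 13 were at least 2-fold higher and 1 lower (8.27% and 9.03% of all genes were), with a median of 1.00. Within a slide, day 10 minus day 2 had a median of 0.79, with 11 higher and 4 lower. Day 6 minus day 3 had a median of 1.39, with 22 higher and 1 lower. The median level of the list was -0.20 at day 1, -2.23 at day 3, -0.52 at day 6 and 0.26 at day 10. Asz1, a scaffold of the piRNA pathway, was at 0.07 at day 10 against -1.94 at day 6 (4.05-fold higher, spot in the edge area), and Mael, which acts in the same silencing of transposons, at 3.72 against 2.62 (2.15-fold higher). The meiotic chromosome axis and synapsis genes Sycp1, Sycp3 and Hormad1 were 2.99-fold, 3.22-fold and 2.09-fold higher. Dazl, an RNA-binding regulator of gametogenesis, was at 3.23 against 2.11 (under 2-fold apart with loess), above its 1.74 in the EGC line. Ddx4, the germline RNA helicase, was at -0.16 and -0.21, and Stra8, the retinoic acid target at the entry to meiosis, was high on both days at 5.96 and 5.73. Tdrd7, a Tudor protein of germ granules, was the exception at 0.36 against 2.62 (4.78-fold lower); it was at -0.03 in PGCs and 3.23 at day 3.

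**Figure D4:**
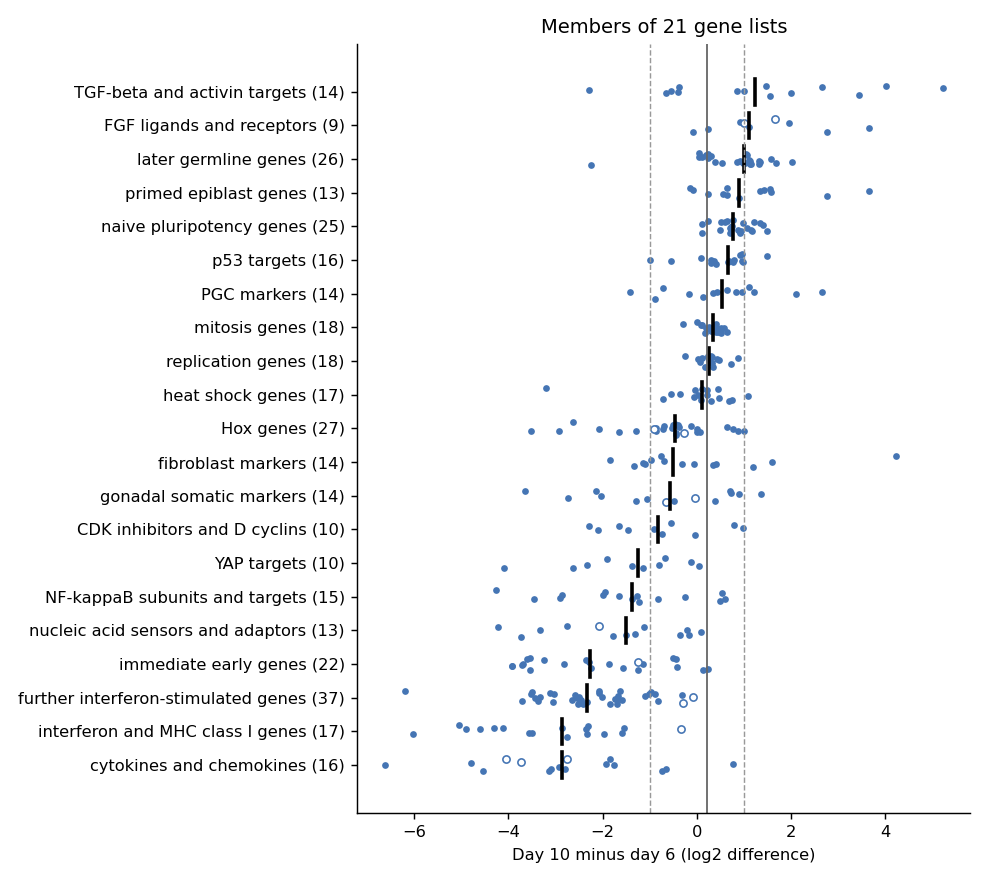
Difference of day 10 minus day 6 (log2, horizontal axis) for the tested members of 21 gene lists (number in brackets), with the list median as a black bar; filled points are measured on both arrays and open points are bounds. The grey line marks the median of all genes (0.22) and the dashed lines 2-fold; the interferon, cytokine and immediate early lists lie to the left of the dashed line by their medians and the TGF-beta and activin targets to the right.

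Chromatin genes showed few differences. Of 12 DNA methylation genes, Dnmt3a and Tet1 were at least 2-fold higher (2.52-fold and 2.08-fold, Dnmt3a not with the mean of its probes and Tet1 not with loess or normexp), and Dnmt3l was at 5.03 and 4.80 and Uhrf1 at 4.66 and 4.48. Of 16 Polycomb genes Mtf2 was 2.31-fold higher (not 2-fold with quantile or loess). Among 24 imprinted genes 2 were higher and 5 lower: Dlk1, a growth regulator, was at 2.61 against 0.92 (3.22-fold higher), H19 at 0.48 against 2.50 (4.05-fold lower) and Igf2 at -0.08 against 1.04 (2.19-fold lower). The 3 detected genes known from the 2-cell-like state of ESCs, Zscan4c, Tcstv1 and Usp17la, were 2.93-fold, 2.55-fold and 2.12-fold higher, Usp17la not with loess or normexp.

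Further signalling lists differed in their counts (8.27% of all genes were at least 2-fold higher and 9.03% lower). Wnt targets counted 2 higher and 1 lower of 15 (median -0.21, above 0 after normexp or with the mean of probes), with Axin2 at -3.48 and -3.26 and Ccnd1 the lowered gene. STAT3 targets, which report LIF signalling, had none higher and Junb lower of 9. The BMP targets counted 3 higher and 2 lower of 10: Id1 and Id3, inhibitors of helix-loop-helix factors, were 2.87-fold and 2.41-fold lower, and Hey1, Smad6 and Smad7 higher. In the p53 list Perp was 2.79-fold higher and no gene was lower of 16, with a median of 0.67. The retinoic acid genes counted 2 higher and 4 lower of 12: the synthesizing enzyme Aldh1a1 was at -0.06 against 3.86 (15.1-fold lower), and Aldh1a2, Crabp2 and Dhrs3 were lower by 2.14 to 3.13 times, while the receptor gene Rarg and the retinol transporter gene Stra6 were 2.19-fold and 2.08-fold higher. No gene of glycolysis, the respiratory chain, sterol synthesis or serine metabolism, 17, 22, 20 and 11 tested, was at least 2-fold apart.

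Markers of other cell types were measured beside these lists. Of all genes 8.27% were at least 2-fold higher and 9.03% lower. Fibroblast markers were mixed, with 3 higher and 4 lower of 14 and a median of -0.51: the matrix genes Dcn and Col1a1 were at 3.76 against 5.09 and 2.39 against 3.36, Col1a2 at 4.58 against 4.18 and Col3a1 at 2.23 against 2.54. Both days thus carried collagen signal above the EGC line, where Col1a1 was at -0.34 and Col3a1 at -4.30. The members that were higher were Lum, Pdgfra and Postn. Postn, a matrix protein, was 18.8-fold higher on its main probe and not above background on either day on its second probe. On the slide shared with day 2 the fibroblast list had a median of -1.68. Its part in the interferon, chemokine, immediate early and YAP differences was not tested.

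Several mesothelial and gonadal somatic markers were lower. Of all genes 9.03% were at least 2-fold lower and 8.27% higher. The genes Upk3b, Bnc1, Sox9, Krt19, Wt1 and Wnt4 were the 6 lowered ones of 14 tested gonadal markers, with Upk3b, a uroplakin of the mesothelium, at -3.21 against 0.44 (12.6-fold lower). Fst, follistatin, was 2.56-fold higher. Amh, Gata4, Hsd3b1 and Inha were not above background on either day, while the steroidogenic gene Cyp17a1 was bright on both, at 4.17 and 3.43. In a mesothelial list chosen after the values had been seen, 7 of 9 were lower and none higher (median -2.11, and -1.25 after normexp), and Msln, mesothelin, was at 1.81 against 3.92. For this list day 6 itself was higher than day 3, by a median of 1.43 within their slide. The keratins Krt8 and Krt18 were 4.57-fold and 3.54-fold lower, while Epcam, an epithelial adhesion protein of PGCs and ESCs, was 2.57-fold higher. The EMT regulators counted 1 higher and 4 lower of 9. Among them Tcf4 was 2.22-fold higher on its reported probe, with differences of 0.47 and 0.05 on its further probes. Twist2 and Snai2 were 8.33-fold and 5.57-fold lower. Of 14 smooth muscle and contractile genes 5 were lower and none higher. The part of these cell types in the other differences was not tested.

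Some markers of blood and endothelium were detected and others were not. Of 18 blood cell markers 9 were tested, 1 of them at least 2-fold higher and 2 lower. The leukocyte and macrophage markers Ptprc, Spi1, Adgre1, C1qa and Tyrobp were not above background on either day. Other markers of such cells were above background on both, with Cd68 at -1.90 at day 10 and -1.20 at day 6. On 1 probe each, Csf1r was at -3.94 and -3.51 and Fcer1g at -2.91 and -3.31. Cd14 and Lyz2 were 4.09-fold and 4.75-fold lower, and Laptm5, a lysosomal protein of blood cells, was at 1.55 against -1.24, with 2.42 in the EGC line. Of 11 endothelial markers 8 were tested, 2 of them at least 2-fold higher and 1 lower. Cdh5, Tie1 and Emcn were not above background on either day. Kdr was above background on both, at -3.77 at day 10 and -4.10 at day 6, as was Plvap, at -1.54 and -2.16. Flt1 was 7.65-fold lower, and Tek and Esam were 2.11-fold and 2.48-fold higher, Tek not in 4 of the 11 alternatives. Extraembryonic endoderm markers counted 5 higher (among them Amn, Lama1 and Cubn) and 2 lower of 13, and trophectoderm markers 2 higher and 5 lower of 12. Of all genes 8.27% were at least 2-fold higher and 9.03% lower. Eomes, a T-box gene of the streak and trophoblast, was at -1.10 against -3.92 (7.05-fold higher), whereas Cdx2 was 2.56-fold lower and Mixl1, Tbx6 and Mesp1 were not above background. Of 27 Hox genes 6 were lower and only Hoxd13 higher; Hoxc6 was at -3.22 against 0.29 (11.4-fold lower), and Hoxc9 and Hoxb9 were 7.63-fold and 6.15-fold lower.

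Seen from the other arrays, the genes called here also differed between the cell lines and the early culture. The comparison of the EGC line with day 3 uses neither the day 10 nor the day 6 array, but day 3 was on the slide and in the scan session of day 6, so the comparisons are not independent of that slide. Of the 1444 lower genes that it tested, 1218 (84.3%) were at least 2-fold lower in the EGC line than at day 3, where 16.1% of all genes were; these are 45.2% of the genes lower in the EGC line. Of the 1298 higher genes 931 (71.7%) were at least 2-fold higher in the EGC line than at day 3, where 26.2% of all genes were; these are 21.3% of the genes higher there. With the ESC line in place of the EGC line the shares were 80.7% of 1412 lower genes (16.6% of all genes) and 58.4% of 1122 higher genes (20.8% of all genes). The lower genes had a median level of -2.33 in PGCs, -0.48 at day 1, -0.35 at day 2, -0.07 at day 3, -0.65 at day 6 and -2.58 at day 10, with -3.07 in the EGC line. The higher genes were at -3.0 in PGCs, -3.85, -3.98 and -4.47 at days 1, 2 and 3, -3.50 at day 6 and -1.90 at day 10, with -2.24 in the EGC line. By these medians the genes lower at day 10 had been higher at days 1 to 6 than in PGCs, and the genes higher at day 10 had been lowest at day 3.

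**Figure D5:**
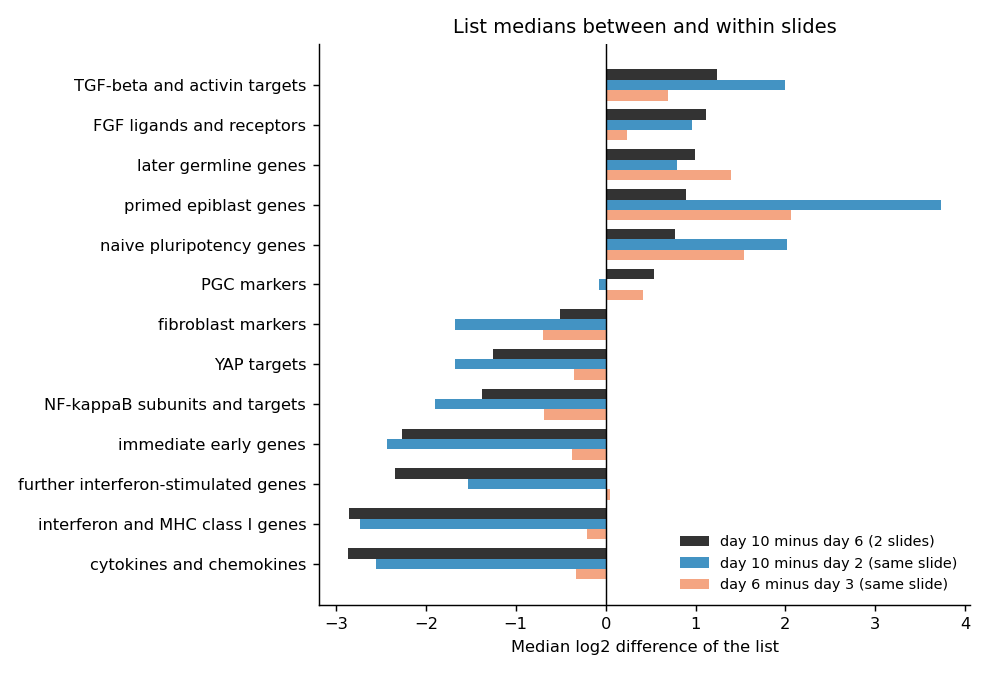
Median log2 difference (horizontal axis) of 13 gene lists for day 10 minus day 6, which lie on different slides, and for the 2 differences within a slide, day 10 minus day 2 with 2i and A83-01 and day 6 minus day 3. Against day 2 of the same slide the medians are -2.74 for interferon and MHC class I genes and -2.44 for immediate early genes. These are close to -2.85 and -2.27 against day 6. The median of the further interferon-stimulated genes is -1.54 against day 2 and -2.34 against day 6, and that of the PGC markers is -0.07 against day 2.

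Some large single differences rested on 1 array. Trex2, an exonuclease gene, was at 6.18 at day 10, while its highest level on the other 21 arrays was -4.48, and it has 1 probe on the array. Its sequence is shown because it carried the largest difference of all. The position is that of the array's annotation on mm9, minus strand.
Trex2, chrX:70679837-70679896: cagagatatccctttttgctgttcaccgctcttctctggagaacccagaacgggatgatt
Chil4, Ppy and Elane were likewise not above background at day 6 and were at least 25.8, 17.9 and 16 times higher, and Ppy and Elane have their spots in the edge area, where 13.4% of genes were at least 2-fold higher, against 7.98% outside. On the day 6 array Defb35, Serpina9, Vmn1r17 and Kcnk4 stood above the other 21 arrays, at -0.01, -0.11, -0.40 and -0.33, where the highest other levels were -4.46, -4.64, -2.98 and -2.63. By contrast Gpnmb, a glycoprotein of macrophages and melanocytes, Gabra3, a GABA receptor subunit, and Cyp1a1, a target of the aryl hydrocarbon receptor, were high on several culture arrays and not above background at day 10; Gpnmb was at 1.53, 1.94, 3.13 and 0.57 at days 1, 2, 3 and 6, and at least 54.7-fold lower at day 10. Whether the genes that stood alone on 1 array differ between the cells was not tested.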

How the data were processed

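The arrays were Agilent 1-colour mouse arrays of 60-base probes, annotated on mm9, and the intensity values were made by the authors with Agilent Feature Extraction 10.7.3.1, per the submitters' processing notes. The deposited files hold the scanner's background-corrected intensity per spot, per the file headers. The log2 values of the authors' deposited value table were used as an alternative. Here log2 of the processed intensity minus the log2 75th percentile of its array was taken, control spots and outlier spots were left out and repeat spots averaged. Each gene took the probe that was brightest on average in the 22 arrays and counted as dim only if all its probes were. Of 41174 probes, 27584 were named through RefSeq accessions, 5493 by symbol and 635 by synonym, and 7462 kept the file's name. With 1 array a group no test was possible, so genes at least 2-fold apart were counted; slide and day cannot be told apart. Named were the 12 highest and 12 lowest differences above background on both arrays, the 6 highest and 6 lowest bounds, up to 4 members per list with the largest difference and a short list of key genes, without probes that have an accession or clone name only. Members and lists were chosen with earlier results of these data known, and 7 of the lists after the values had been seen. Alternatives were normexp (offset 50, limma 3.58.1 in R 4.3.3), median centring, quantile, loess, the authors' table, other filters and other probe rules. Python 3.11.15 with numpy 2.4.6, pandas 2.3.3, statsmodels 0.14.6 and matplotlib 3.10.9 was used, and the counting was tested on simulated data. The number of arrays limits the precision. Some genes are not reported here.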

Additional observations from a re-analysis of the deposited data

How the results depend on the processing

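The counts of 1432 genes higher and 1563 lower moved by over 1.5 times in some settings: 851 higher and 847 lower after normexp background correction, 892 higher with loess on the mean level (1949 lower), and 2658 higher with no filter on dim probes (2091 lower). Higher genes made up 47.8% of the calls, 31.4% with loess and 56.0% with no filter. Of 163 named genes that were 2-fold apart, none reversed in any of the 11 alternatives, while 16 were under 2-fold after normexp, 12 with loess, 8 with quantile normalization, 4 with the mean of probes and 0 in the others. Of those, the genes above background on both arrays gave no value for 16 and the array without its edge area none for 11, while the measured values and the unfiltered values differ from the reported ones only where a bound was given, so these settings say little about stability. Of 50 list medians, 12 changed sign in some alternative, all of them under 0.5 in size, and the 11 medians of at least 1 in size did not. With loess they were -0.22 for heat shock, -0.28 for unfolded protein response, -0.11 for ERK feedback, -0.12 for BMP targets, -0.06 for Nodal ligand and receptor genes, and -0.02, -0.02, -0.01 and -0.004 for replication, glycolysis, respiratory chain and serine genes. With normexp they were 0.23 for Wnt targets, 0.34 for epithelial junction and 0.03 for trophectoderm genes. Of the medians of at least 1 in size, 3 moved by over 1.5 times, all with normexp: -0.92 for nucleic acid sensors, -1.86 for cytokines and -1.25 for mesothelial markers. In 11 lists that lead the text, 16 of 121 medians moved by more than the scanner's error. The median of the interferon and MHC class I genes was -3.37 with quantile normalization, -3.22 with loess, -3.17 for genes above background on both arrays, -3.16 with the mean of probes and -3.49 without the edge area, an alternative chosen after seeing the data. With normexp the medians were -1.74 for immediate early genes and -0.85 for YAP targets. With loess they were 0.47 for naive, 0.65 for primed and 0.76 for later germline genes. The gonadal somatic median was 0.0 with normexp, -0.78 with loess, -0.78 above background on both arrays and with measured values in place of bounds, -0.87 with the mean of probes and -0.97 with the brightest probe. The cause of these shifts was not tested. No paired analysis was possible because each group has 1 array. Signal over background limits the 636 calls given as bounds.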

Other observations

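An area at 1 edge of the day 10 array, chosen after seeing the data, held 1998 spots (4.61% of all). Of 68 spots on the day 10 array that lay at least 1.5 above all other arrays on the log2 scale, 17 (25%) were inside it, and on the day 6 array 5 of 88 (5.68%) were inside the same area. Of 939 genes whose probe lay there, 126 (13.4%) were at least 2-fold higher at day 10, against 7.98% of the genes outside. Among the genes named here Tgm5, Hykk, Ppy, Elane, Il6, Tdgf1, Asz1, Hey1, Twist2 and Nanog had their reported probe in it. In all, 6 probes on the day 10 array and 17 on the day 6 array stood at least 3 above every other array, where the 22 arrays ranged from 1 to 123 such probes.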
